A study of Mus musculus with 50 samples.

Results

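The Hox genes are described here by their DNA methylation in mouse soleus, along each of the 4 Hox clusters and from paralog 1 to paralog 13. A CpG was counted as a Hox CpG where the deposited table placed it in the promoter or the gene body of 1 of 38 Hox genes. This gave 539 of the 205304 CpGs of the table, grouped in 85 of its 51038 CpG clusters, and 34 of the 38 genes had at least 1 such CpG. Of the 38 genes, 29 had promoter CpGs and 26 had gene body CpGs, and Hoxa3, Hoxa13, Hoxc6 and Hoxd4 had none under their own name.

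The assay was RRBS (reduced representation bisulfite sequencing), in which the enzyme MspI cuts DNA at CCGG so that CpG-rich fragments are read, and bisulfite separates methylated from unmethylated cytosines. The mice were on a C57BL/6 background and all carried floxed alleles of Dnmt3a, the gene of a DNA methyltransferase that places new methyl marks. WT mice had no Cre, whereas in mD3AKO mice (KO in the plots) a Cre transgene under the muscle creatine kinase promoter, which acts late in muscle differentiation, deleted Dnmt3a. The soleus, a calf muscle rich in slow fibres, came from adult male and female mice, either rested on a sham treadmill or killed 10, 30 or 60 min after a run. WT samples numbered 5 at rest and 5, 5 and 6 at the 3 later times, and mD3AKO samples 5, 5, 7 and 6, which gave 21 and 23. The samples held 12819404 to 41285655 methylation calls each, of which 32354 to 94494 were at Hox CpGs. Median coverage over the Hox CpGs ranged from 45 to 154 reads between samples. The transgene acts in skeletal muscle and heart, and whole soleus also holds cells other than fibres, in which the deletion was not checked here, so that the share of methylated cells and the mix of cell types cannot be told apart in a level. The promoters of 2 of 8 muscle genes chosen to check the tissue (Acta1 and Des) held 1 CpG each and the other 6 held none, so the tissue was not checked from promoters.

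Hox genes encode homeodomain transcription factors that give cells their position along the body axis and the limbs. They lie in 4 clusters on separate chromosomes, all genes of a cluster are ordered by paralog number, and low numbers act towards the head while high numbers act towards the tail and the ends of the limbs. In most tissues their CpG-rich promoters are kept silent by Polycomb proteins rather than by DNA methylation, and Dnmt3a is known to act at the edges of such Polycomb-marked regions.

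Hox CpGs were lightly methylated. Their methylation level (methylated calls over all calls, averaged over CpGs with equal weight) was 9.40% ± 1.53 in WT (SD, n = 21, the same for all WT values below) and 8.84% ± 1.39 in mD3AKO (SD, n = 23), while the remaining 204765 CpGs of the table had 25.5% ± 0.78 and 24.6% ± 0.70. Of the 539 Hox CpGs, 300 had a mean WT level under 5%, 227 lay from 5% to 50% and 12 lay above 50%. The Hox CpGs were more often in CpG-rich windows, since 69.2% of them met the criteria for an island-like window (200 bp around the CpG, GC fraction 0.5 or more, CpGs at 0.6 or more of the number that base composition predicts) against 54.6% of the remaining CpGs. Within island-like windows the WT levels were 6.51% ± 1.01 at Hox CpGs and 7.06% ± 0.16 elsewhere, and the Hox level was the lower of the 2 in 31 of 44 samples. Outside such windows they were 15.9% ± 3.02 and 47.6% ± 1.53, with the Hox level lower in 44 of 44 samples. These are descriptions of CpG classes, and no test was made between them.

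Among promoter CpGs, the order depended on the CpG class and on how CpGs were weighted. Hox promoter CpGs had a WT level of 7.19% ± 1.18 against 3.43% ± 0.14 for promoter CpGs of the remaining genes, and the Hox level was the higher in 44 of 44 samples. Among island-like promoter CpGs alone the levels were 5.27% ± 0.93 and 1.33% ± 0.04, again with the Hox level above in 44 of 44 samples. Among promoter CpGs outside island-like windows they were 12.0% ± 2.51 and 13.0% ± 0.63, and the Hox level was the lower in 31 of 44 samples. With all calls summed over CpGs, which gives deeply covered CpGs more weight, the WT level was 7.06% in Hox promoters and 16.2% in the remaining promoters, so the order of the promoters turned. Within Hox promoters the level was lowest close to the transcription start: 4.69% ± 1.00 for the 67 promoter CpGs within 250 bp, 7.04% ± 1.30 for the 174 CpGs at 250 to 1000 bp, and 9.89% ± 2.01 for the 72 CpGs more than 1000 bp upstream (WT, SD, n = 21). The share of island-like windows moved with this, at 88.1%, 77.0% and 41.7%, and its part in the result was not tested. By annotation, Hox introns (174 CpGs) had 13.9% ± 2.86, coding exons (194 CpGs) 7.63% ± 1.40 and untranslated regions (54 CpGs) 5.70% ± 1.46.

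**Figure D1:**
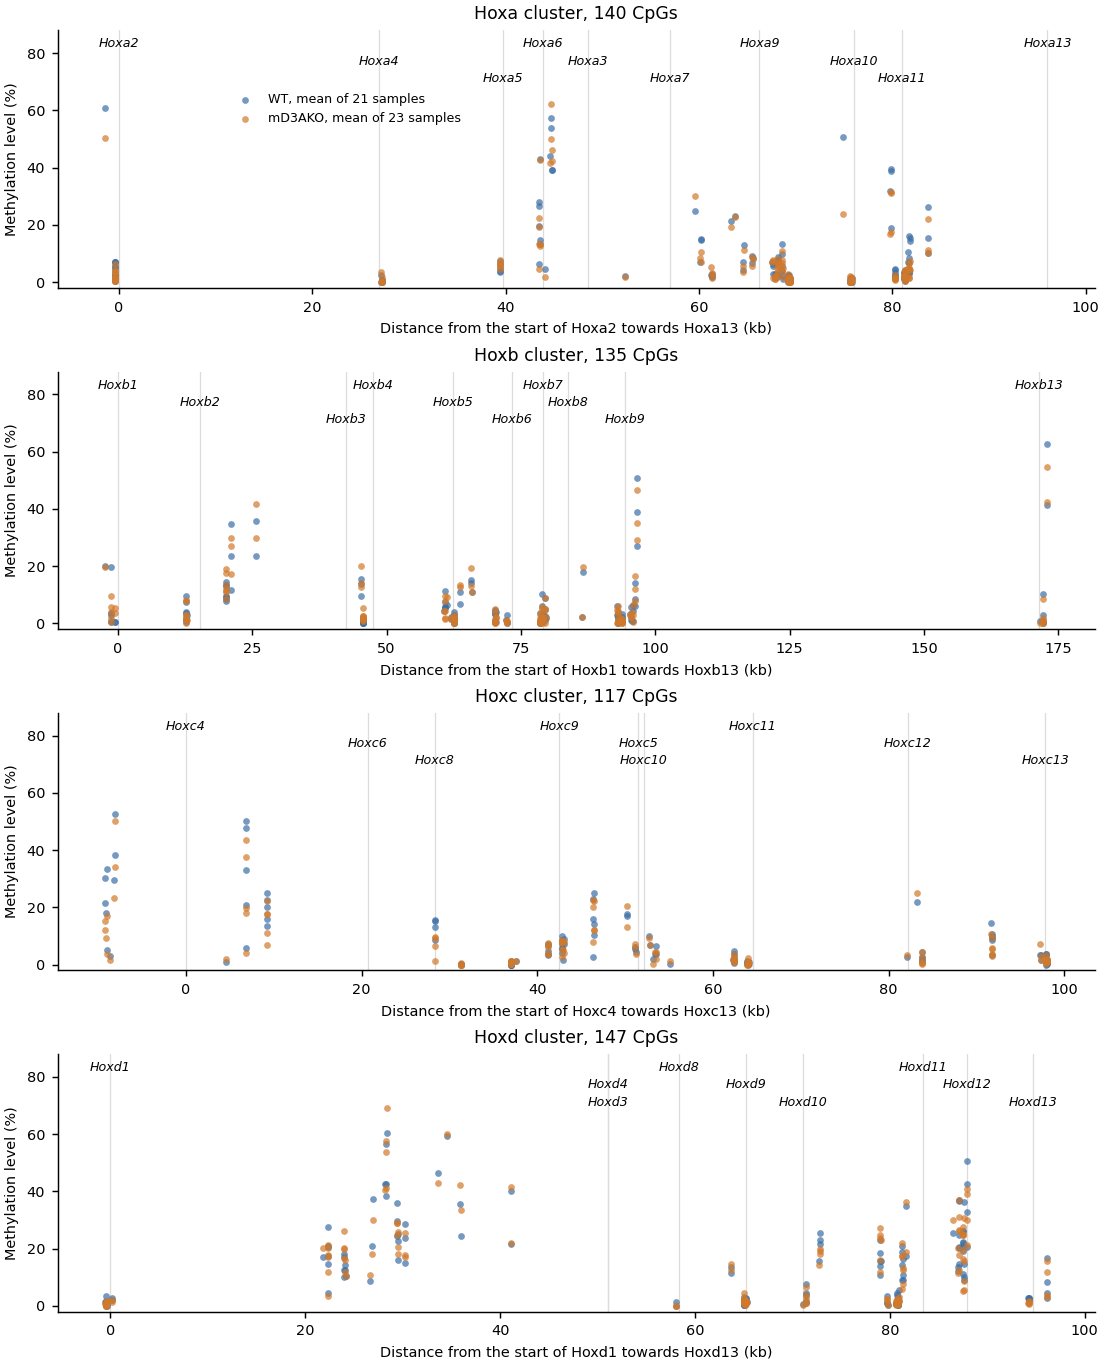
Mean methylation level (%) of each Hox CpG in WT (blue, 21 samples) and mD3AKO (orange, 23 samples) against its distance in kb from the start of the gene of lowest paralog number towards that of the highest, with vertical lines at gene starts. Most CpGs lie near 0, and short stretches rise above 40%, as upstream of Hoxa6, upstream of Hoxb9 and Hoxb13, in the Hoxc4 intron and along Hoxd3; the gene starts are those of the longest annotated models, so that Hoxa3 and Hoxc5 stand out of paralog order.

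In the Hoxa cluster (140 CpGs), methylation was gathered in a few short stretches. The Hoxa6 promoter had the highest promoter level of the cluster, with 14.8% in the lowest, 28.8% in the median and 44.5% in the highest WT sample, and 16.0%, 26.5% and 39.1% in mD3AKO. Its 5 upstream CpGs, chr6:52209440-52209646 of GRCm38 in an intron of the long Hoxa3 model, had 47.1% ± 16.3 in WT and 47.5% ± 13.4 in mD3AKO. The Hoxa10 promoter had the lowest level, 0.537% ± 0.626 in WT and 0.565% ± 0.592 in mD3AKO over 14 CpGs. Among gene bodies, Hoxa2 was highest at 22.0% ± 9.32 in WT and Hoxa7, with a single CpG, lowest at 2.03% ± 5.17. Hoxa2, which patterns the hindbrain and the second pharyngeal arch, showed how sharply the level could step within a gene. A single coding-exon CpG at chr6:52163387 had 60.9% ± 14.6 in WT, whereas 13 coding-exon CpGs nearer the start, at chr6:52164387-52164462, had 3.56% ± 3.28. These stretches are printed from GRCm38, plus strand, because they show a highly and a lightly methylated part of the cluster, with each measured CpG in capitals (chr6:52209425-52209662, chr6:52163357-52163416 and chr6:52164372-52164478).
Hoxa6 upstream, methylated: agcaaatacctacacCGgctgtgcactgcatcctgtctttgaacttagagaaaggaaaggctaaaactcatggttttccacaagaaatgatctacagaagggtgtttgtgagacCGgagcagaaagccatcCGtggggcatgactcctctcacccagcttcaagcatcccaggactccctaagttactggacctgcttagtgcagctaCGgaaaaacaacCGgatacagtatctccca
Hoxa2 exon, methylated: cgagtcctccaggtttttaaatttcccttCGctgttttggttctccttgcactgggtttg
Hoxa2 exon, lightly methylated: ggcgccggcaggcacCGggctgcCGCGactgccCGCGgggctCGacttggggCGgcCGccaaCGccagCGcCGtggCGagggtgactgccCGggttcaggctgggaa

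The lightly methylated Hoxa2 stretch held 15 CGs in 107 bases, while the methylated Hoxa6 stretch held 5 in 238 bases and the methylated Hoxa2 window 2 in 60 bases.

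In the Hoxb cluster (135 CpGs), 88 CpGs had a mean WT level under 5%. The Hoxb3 promoter was the highest promoter, at 12.8% ± 4.62 in WT and 15.6% ± 5.52 in mD3AKO over 3 CpGs that lie in an untranslated part of Hoxb4. The Hoxb1 promoter was the lowest in WT, at 0.474% ± 1.24 over 2 CpGs. Hoxb3 was also the highest gene body, at 17.1% ± 9.49 in WT and 21.2% ± 8.09 in mD3AKO, and Hoxb9 the lowest, at 1.93% ± 1.44 and 1.89% ± 1.24. The most methylated CpG clusters lay upstream of the genes of high paralog number. Upstream of Hoxb13, which acts at the tail end of the axis, 2 CpGs at chr11:96192797-96192817 had 48.3% ± 20.9 in WT and 46.1% ± 17.2 in mD3AKO. Upstream of Hoxb9, 3 CpGs at chr11:96269126-96269169 had 40.8% ± 13.8 and 38.3% ± 14.4.

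In the Hoxc cluster (117 CpGs), the Hoxc8 promoter was the highest promoter, at 11.5% ± 8.83 in WT and 6.06% ± 5.75 in mD3AKO, and the Hoxc11 promoter the lowest, at 0.684% ± 0.894 and 0.764% ± 1.27. The Hoxc4 gene body was the highest, at 26.4% ± 8.37 in WT and 18.6% ± 7.94 in mD3AKO, and that of Hoxc11 the lowest, at 1.64% ± 1.16 and 1.43% ± 0.994. The table assigned 49 CpGs to the gene body of Hoxc5, whose annotated model spans several neighbours, so its body level of 9.20% ± 4.07 in WT also covers exons of Hoxc6 and Hoxc9.

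The Hoxd cluster (147 CpGs) had the highest level of the 4, above that of Hoxa, Hoxb and Hoxc in 44 of 44 samples each. The Hoxd3 gene body, with 37 CpGs at chr2:74721814-74741124, had 16.0% in the lowest, 24.1% in the median and 38.2% in the highest WT sample. Hoxd12, which patterns the digits with Hoxd11 and Hoxd13, had 24.5% ± 6.10 in its promoter over 23 CpGs in WT and 23.2% ± 6.40 in mD3AKO, although 22 of these 23 CpGs lay in island-like windows. The Hoxd8 promoter and gene body rest on the same 2 CpGs and were the lowest, at 0.759% ± 2.73 in WT and 0.0870% ± 0.288 in mD3AKO. Hoxd4 had no CpG under its own name, yet the CpG at chr2:74728441, assigned to the Hoxd3 body, lies in a coding exon of Hoxd4 and had 59.2% ± 22.1 in WT and 59.9% ± 21.7 in mD3AKO.

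**Figure D2:**
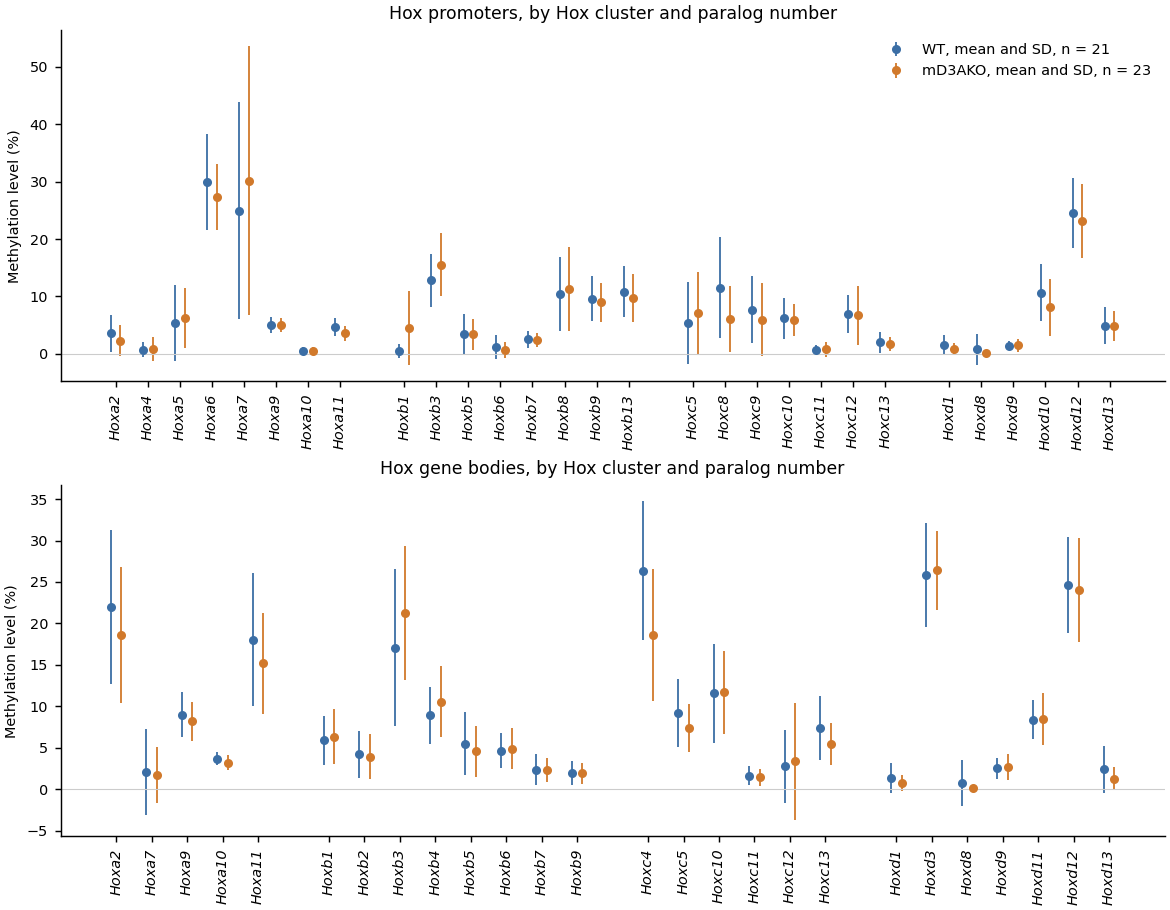
Methylation level (%) of Hox promoters (top, 29 genes) and gene bodies (bottom, 26 genes) ordered by Hox cluster and paralog number, as the mean and SD of 21 WT samples (blue) and 23 mD3AKO samples (orange). Hoxa6, Hoxa7 and Hoxd12 stand above the other promoters, and the SD bars of the genotypes overlap at every gene.

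Paralog number did not order the levels the same way in each cluster. Over the promoters of a cluster, the least-squares slope of level on paralog number, computed per sample, was 1.07 ± 0.266 percentage points per paralog in Hoxd (6 promoters, above 0 in 44 of 44 samples, SD, n = 44) and 0.391 ± 0.465 in Hoxb (8 promoters, above 0 in 37 samples). The counts of samples and the SD come from the same promoters each time and do not measure a spread between genes. In Hoxd the rise was uneven. The WT levels were 1.58% in Hoxd1, 0.759% in Hoxd8, 1.41% in Hoxd9, 10.7% in Hoxd10, 24.5% in Hoxd12 and 4.87% in Hoxd13. The Hoxb slope differed in size between the genotypes, at 0.607 ± 0.347 in WT and 0.195 ± 0.478 in mD3AKO, whereas that of Hoxd was 1.07 ± 0.261 and 1.06 ± 0.276. Hoxb1, at the low end of the Hoxb fit, had 0.474% in WT and 4.51% in mD3AKO over 2 CpGs. Its part in the Hoxb difference was not tested. The pooled slope was -0.153 ± 0.266 in Hoxa (8 promoters, above 0 in 14 samples) and -0.577 ± 0.796 in Hoxc (7 promoters, above 0 in 9 samples), with WT and mD3AKO means of -0.172 and -0.136 in Hoxa and -0.589 and -0.565 in Hoxc. Slopes of gene body level were below 0 on average in all 4 clusters, at -0.948 ± 1.16 in Hoxa, -0.959 ± 0.410 in Hoxb, -1.47 ± 0.759 in Hoxc and -0.103 ± 0.256 in Hoxd. Their WT and mD3AKO means were -1.03 and -0.869 in Hoxa, -0.865 and -1.04 in Hoxb, -1.77 and -1.19 in Hoxc and -0.0796 and -0.125 in Hoxd. In Hoxb and Hoxd the mean slope was thus above 0 for promoters and below 0 for gene bodies. The Hoxd body slope was close to 0, and above 0 in 13 of 44 samples. The fits hold partly different genes, since Hoxd3 had only body CpGs and Hoxb13 only promoter CpGs. The part of the gene and the set of genes therefore cannot be told apart. Each slope rests on 5 to 8 genes, with no test. Pooled over clusters, promoters of paralog 6 (23.2% ± 5.94, 17 CpGs) and paralog 12 (19.4% ± 4.02, 30 CpGs) had the highest WT levels, with 13 of the 17 CpGs from Hoxa6 and 23 of the 30 from Hoxd12, and those of paralog 4 (0.797% ± 1.38, 6 CpGs of Hoxa4) and paralog 1 (1.31% ± 1.26, 15 CpGs) the lowest.

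The comparison of mD3AKO with WT asked which Hox features depend on muscle Dnmt3a. No Hox promoter, gene body, CpG cluster or single CpG passed an adjusted p of 0.05 in edgeR's quasi-likelihood test with Benjamini-Hochberg adjustment over all features. The count was 0 of 29 promoters, where 0.789% of all promoters were called, and 0 of 26 gene bodies, where 1.42% were called. It was 0 of 85 CpG clusters, where 1.09% were called, and 0 of 539 CpGs, where 0.289% were called. Against such low shares a count of 0 does not set the Hox genes apart. At an unadjusted p under 0.05 there were 1 promoter (3.45%, against 8.13% of all), 1 gene body (3.85%, against 9.77%), 6 CpG clusters (7.06%, against 9.56%) and 39 CpGs (7.24%, against 6.40%). The likelihood ratio test called 1 promoter and 1 CpG cluster, both the same 2 CpGs of Hoxb1, where it called 1.69% of all promoters and 2.92% of all CpG clusters. limma called 2 of the 539 CpGs, where it called 0.711% of all CpGs, and no Hox promoter, gene body or CpG cluster. The median log2 odds ratio of methylation (mD3AKO over WT) was -0.12 over the Hox promoters and -0.07 over all promoters, -0.11 and -0.10 over gene bodies, and -0.03 and -0.15 over CpG clusters. Of the 85 Hox CpG clusters, 48 were lower and 37 higher in mD3AKO, and 62.3% of all CpG clusters were lower.

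**Figure D3:**
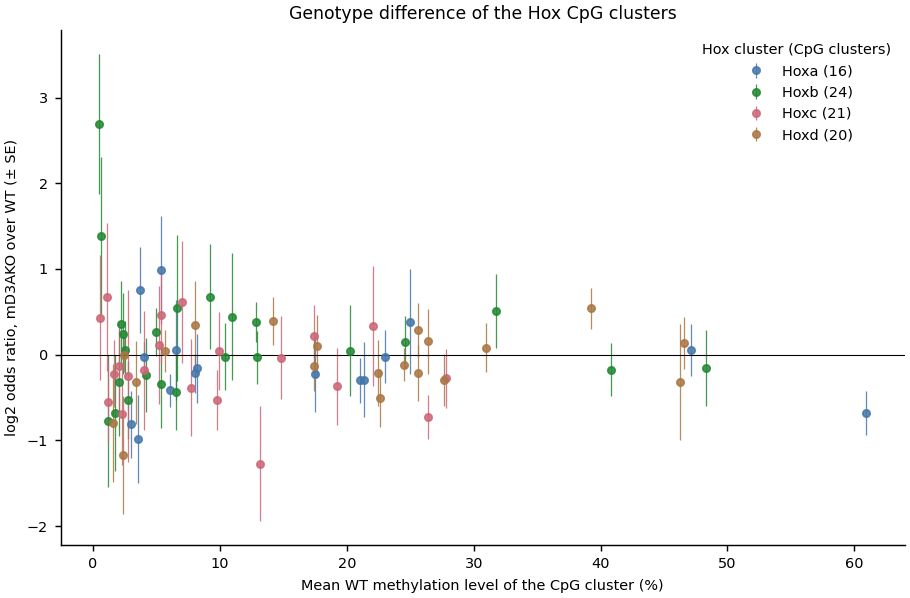
log2 odds ratio of methylation, mD3AKO over WT, with its standard error (SE), against the mean WT level (%) of 81 Hox CpG clusters, coloured by Hox cluster; 4 CpG clusters had no usable SE and are not drawn. The points scatter around 0 at every level, with the Hoxb1 pair of CpGs alone above 2.

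The Hoxc4 gene body had the lowest p of the Hox gene bodies. Hoxc4 is a paralog 4 gene of the cervical and upper thoracic axis, and its 9 CpGs lay within an intron at chr15:103027033-103028154. Their level was 11.3%, 25.9% and 41.7% in the lowest, median and highest WT sample and 4.20%, 18.9% and 33.4% in mD3AKO, 19 of 23 mD3AKO samples lying under the WT mean and overlapping ranges. The log2 odds ratio was -0.72 ± 0.24 (SE, edgeR, adjusted p = 0.175) as a gene body and -0.72 ± 0.26 (adjusted p = 0.231) as a CpG cluster. When CpG clusters were rebuilt from the positions of the measured CpGs with gaps of up to 200 bp, the intron was split, and the 5 CpGs at chr15:103027906-103028154 formed the only one of 114 such Hox clusters called, where 0.987% of all were called (log2 odds ratio -1.14 ± 0.29, edgeR, adjusted p = 0.0414). This stretch was singled out after its value was seen. Its level was 11.0%, 20.1% and 40.1% in the lowest, median and highest WT sample and 0.656%, 12.8% and 20.0% in mD3AKO. All 23 mD3AKO samples were below the WT mean of 22.1%, although the ranges overlapped. The difference was -10.1 percentage points, between -10.7 and -9.23 when any 1 sample was left out, -8.68 within samples 1 to 25 (rest and 60 min) and -11.3 within samples 26 to 50 (10 and 30 min). By time, the means were 18.5% ± 3.96 in WT and 17.0% ± 2.53 in mD3AKO at rest, 17.8% ± 10.4 and 8.49% ± 6.94 at 10 min, 25.1% ± 5.03 and 11.2% ± 5.93 at 30 min, and 26.3% ± 11.1 and 11.6% ± 2.24 at 60 min. The genotypes thus lay close together at rest and further apart at the later times, and a genotype by time interaction was not tested for these 5 CpGs. For the whole Hoxc4 gene body of 9 CpGs it was tested and not called (edgeR, unadjusted p = 0.368). The 4 other CpGs of the intron, with 78 to 499 calls per sample, had 35.1% ± 15.5 in WT and 31.7% ± 15.6 in mD3AKO. Their difference was 0.669 percentage points within samples 1 to 25 and -7.98 within samples 26 to 50. The 2 parts of the intron were not compared by a test, and the checks of the 5 CpGs use the same samples that singled them out. The sequence of the 5 CpGs (chr15:103027891-103028170, GRCm38, plus strand, measured CpGs in capitals) is shown because this stretch was called with gaps of 200 bp.
Hoxc4 intron: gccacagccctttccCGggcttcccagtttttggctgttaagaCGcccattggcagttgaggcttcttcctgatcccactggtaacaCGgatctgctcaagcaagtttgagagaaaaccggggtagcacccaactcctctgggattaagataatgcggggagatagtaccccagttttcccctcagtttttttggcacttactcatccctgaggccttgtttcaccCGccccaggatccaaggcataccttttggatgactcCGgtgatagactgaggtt

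The stretch held 7 CGs in 280 bases, of which 5 were measured. Within it, the CpG at chr15:103027934 had 33.4% ± 14.7 in WT and 16.9% ± 10.2 in mD3AKO, that at 103027978 had 18.0% ± 9.31 and 9.38% ± 7.84, and that at 103028154 had 30.3% ± 21.0 and 15.3% ± 11.9. The first CpG, at 103027906, was low in both, at 5.08% ± 9.50 and 3.77% ± 5.19.

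Among single CpGs, the lowest p was that of a CpG 26 bp upstream of the start of Hoxc8, a gene of the thoracic axis and forelimb. Its level was 0%, 7.61% and 25.3% in the lowest, median and highest WT sample and 0%, 0% and 11.0% in mD3AKO, 22 of 23 mD3AKO samples lying under the WT mean of 8.74%. The CpG had 10 to 250 calls per sample. With the pseudocount of 1, the value that limma uses at a level of 0% falls as calls rise, and the part of this in its call was not tested. For this CpG the log2 odds ratio was -2.90 ± 0.78 (edgeR, adjusted p = 0.108), and limma called it (adjusted p = 0.00795). It is the last of 4 CpGs at chr15:102990565-102990581, which together had 13.2% ± 9.96 in WT and 6.76% ± 6.69 in mD3AKO and a log2 odds ratio of -1.27 ± 0.67 (edgeR, adjusted p = 0.577). The other CpG called by limma (adjusted p = 0.0316) lay in the intron of Hoxa10, a gene of the lumbar axis and upper hindlimb, at chr6:52239770. The lowest WT sample had 4.94%, the median 51.0%, and the highest was fully methylated, against 0%, 16.0% and 65.9% in mD3AKO, with means of 50.6% ± 23.1 and 23.7% ± 17.6 and with 21 of 23 mD3AKO samples under the WT mean (edgeR, log2 odds ratio -2.08 ± 0.60, adjusted p = 0.160). It stood alone, since the 14 promoter CpGs of the same CpG cluster were at 0.537% in WT. Both sites are shown with the measured CpGs in capitals (GRCm38, plus strand, chr15:102990550-102990597 and chr6:52239741-52239800), because they had the lowest p of all Hox CpGs.
Hoxc8 upstream: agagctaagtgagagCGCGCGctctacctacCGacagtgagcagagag
Hoxa10 intron: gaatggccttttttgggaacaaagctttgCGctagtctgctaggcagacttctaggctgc

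The Hoxc8 CpG is the last of the capitals. The Hoxa10 window holds 1 CG in 60 bases.

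Hoxb1, which specifies the fourth hindbrain segment, had the lowest p of the promoters and the CpG clusters, and it was the higher in mD3AKO. Its 2 promoter CpGs, in a coding exon at chr11:96366346-96366354, had 0%, 0% and 5.0% in the lowest, median and highest WT sample and 0%, 0.840% and 22.2% in mD3AKO, with 36 to 287 calls per sample. As a promoter the log2 odds ratio was 2.66 ± 0.83 (edgeR, adjusted p = 0.168). It ranged from 2.38 to 3.05 when 1 sample was left out at a time. The difference was largest at 10 min, where the means were 0.102% ± 0.228 in WT (n = 5) and 12.0% ± 9.11 in mD3AKO (n = 5), while at rest they were 0.812% ± 1.30 and 1.60% ± 2.71. The highest mD3AKO levels at 10 min, 22.2% and 19.1%, came from samples with only 36 and 47 calls at this site. In 9 of 23 mD3AKO samples the level was below the WT mean, so the higher mean rests on part of the samples. The pair is shown with its surroundings (chr11:96366331-96366370, GRCm38, plus strand).
Hoxb1 exon: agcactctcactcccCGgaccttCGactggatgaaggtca

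The stretch holds 1 CCGG, the site that MspI cuts, and its first measured CpG lies within it.

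**Figure D4:**
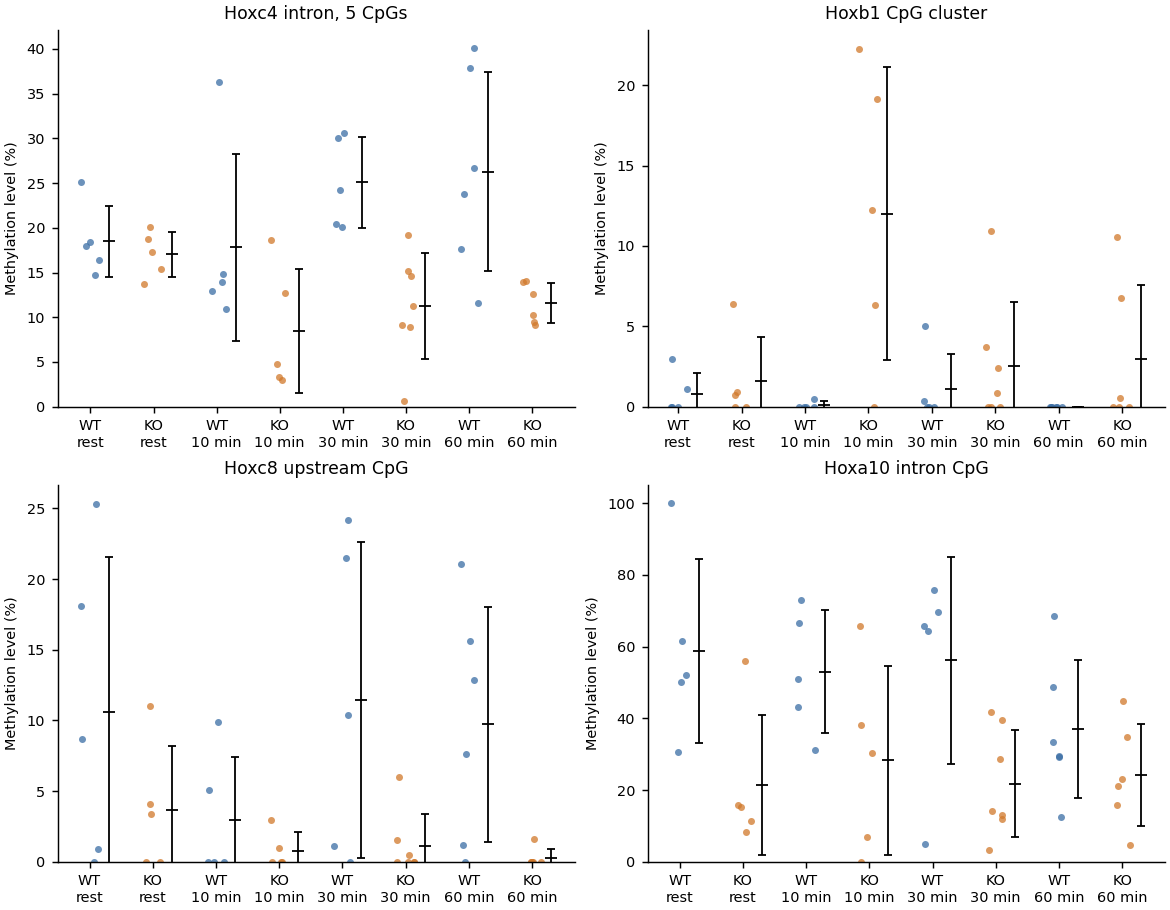
Methylation level (%) of each sample at the 5 CpGs of the Hoxc4 intron, the 2 CpGs of Hoxb1, the CpG upstream of Hoxc8 and the CpG in the Hoxa10 intron, by genotype and time, with the mean and SD of each group of 5 to 7 samples as bars. At Hoxc4 the mD3AKO samples reach 20.0% and the WT samples 40.1%, and at Hoxb1 most samples of both genotypes lie at or near 0.

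The other named features did not pass the test either. Among promoters, Hoxa11 had 4.66% ± 1.65 in WT and 3.55% ± 1.32 in mD3AKO (log2 odds ratio -0.41 ± 0.21, edgeR, adjusted p = 0.629), Hoxc8 had -1.17 ± 0.69 (adjusted p = 0.742), Hoxd10 had -0.57 ± 0.32 (adjusted p = 0.724) and Hoxa2 had -0.99 ± 0.53 (adjusted p = 0.690). The promoters of Hoxa5 (1.03), Hoxb3 (0.38) and Hoxc5 (0.92) had log2 odds ratios above 0, and those of Hoxb6 (-0.78), Hoxc9 (-0.37), Hoxd1 (-0.79) and Hoxd9 (-0.27) below 0, with adjusted p of 0.771 to 1. Among gene bodies, Hoxb3 (0.49 ± 0.25, adjusted p = 0.542) and Hoxa10 (-0.22 ± 0.12, adjusted p = 0.580) came next after Hoxc4, and Hoxd13, which patterns the digits, had -1.10 ± 0.64 (adjusted p = 0.640). The Hoxb4 body, at 0.30, lay above 0, as did that of Hoxd3 at 0.06, while the bodies of Hoxa2 (-0.31), Hoxa9 (-0.13), Hoxb5 (-0.22), Hoxc13 (-0.45), Hoxc5 (-0.30) and Hoxd1 (-0.47) lay below. Among CpG clusters, the methylated exon CpG of Hoxa2 had 50.3% ± 9.10 in mD3AKO against 60.9% in WT, 21 of 23 mD3AKO samples lying under the WT mean (log2 odds ratio -0.68 ± 0.26, adjusted p = 0.283). The 3 CpGs of Hoxd3 at chr2:74727011-74728441, in exons of Hoxd4, were on the other side, at 39.2% ± 15.0 in WT and 45.9% ± 9.90 in mD3AKO (0.54 ± 0.24, adjusted p = 0.429). The clusters at Hoxa11 (-0.42), Hoxa10 (-0.81), Hoxc13 (-0.53), Hoxd13 (-1.17) and Hoxd10 (-0.51) had log2 odds ratios below 0, and those of Hoxb3 with Hoxb4 (0.38) and of the Hoxb4 exon (1.39) above 0, with adjusted p of 0.484 to 0.727.

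Averaged over each Hox cluster, the level was 8.51% ± 1.27 in WT and 7.24% ± 1.24 in mD3AKO in Hoxa, 19 of 23 mD3AKO samples lying under the WT mean. In Hoxc it was 8.14% ± 2.30 and 6.76% ± 1.81, with 18 of 23 below. In Hoxb (6.50% ± 1.55 and 6.73% ± 1.38, 10 of 23 below) and Hoxd (13.9% ± 2.28 and 14.0% ± 2.23, 14 of 23 below) the means differed by less than the SD between samples. The difference of -1.27 percentage points in Hoxa was close to 1 SD, that of -1.37 in Hoxc was less than the SD of either genotype, and no p is given for a mean over genes chosen together. In Hoxa and Hoxc the difference was larger outside promoters, whereas over all Hox CpGs it was -0.550 percentage points in promoters and -0.557 outside them. Promoter CpGs had 7.43% ± 1.55 in WT and 6.61% ± 1.21 in mD3AKO in Hoxa, and 4.07% ± 1.57 and 3.56% ± 1.78 in Hoxc. In Hoxb they had 6.34% ± 1.49 and 6.36% ± 1.62, and in Hoxd 10.1% ± 1.87 and 9.37% ± 2.18. Hoxa gene body CpGs outside promoters had 12.6% ± 2.66 in WT and 9.65% ± 2.14 in mD3AKO (21 of 23 below), and those of Hoxc 12.0% ± 3.63 and 9.80% ± 2.76 (19 of 23 below). Those of Hoxb had 6.67% ± 2.18 and 7.15% ± 1.94 and those of Hoxd 17.7% ± 3.30 and 18.5% ± 3.06. The mean over all remaining CpGs of the table was lower in mD3AKO as well, 21 of 23 mD3AKO samples lying under the WT mean.

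**Figure D5:**
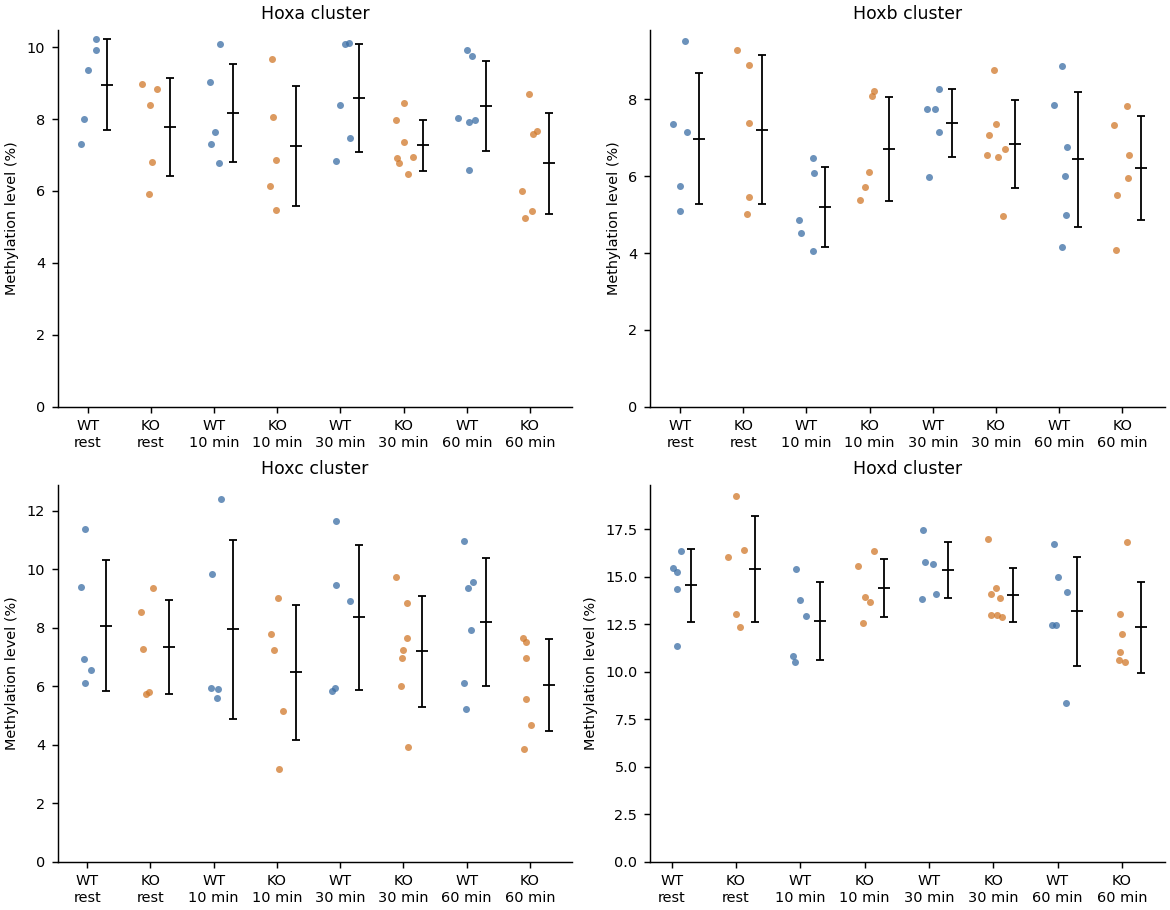
Mean methylation level (%) over the CpGs of each Hox cluster in every sample, by genotype and time, with the mean and SD of each group of 5 to 7 samples as bars. The ranges of WT (blue) and mD3AKO (orange) samples overlap in all 4 panels, and Hoxd lies above the other 3 clusters.

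After exercise, no Hox feature passed the test of a difference over time, where 0.0% of all promoters, 0.0% of all gene bodies and 0.0% of all CpG clusters were called (edgeR). At an unadjusted p under 0.05 there were 1 of 29 promoters, 1 of 26 gene bodies and 3 of 85 CpG clusters. The shares of 3.45%, 3.85% and 3.53% lay near those over all features, 3.65%, 3.97% and 2.86%. The lowest p among promoters was that of Hoxa5 (edgeR, adjusted p = 1), a gene of the neck and lung, with 4.22% ± 3.38, 3.12% ± 5.17, 9.03% ± 4.97 and 5.17% ± 10.1 in WT at rest, 10, 30 and 60 min and 7.95% ± 3.99, 3.68% ± 2.01, 9.62% ± 6.93 and 3.20% ± 3.03 in mD3AKO. In both genotypes the mean at 30 min was the highest, within the spread of the samples. The promoters of Hoxa2 and Hoxa7 followed, the gene bodies of Hoxa7, Hoxc11 and Hoxd12 led their kind, and CpG clusters of Hoxb6, Hoxa5 and Hoxa7 led theirs (edgeR, adjusted p = 1 for each). The promoter CpG of Hoxa7 had 32.2% ± 17.6 in WT and 39.3% ± 25.1 in mD3AKO at rest, and 16.4% ± 16.4 and 14.0% ± 13.4 at 60 min. The gene body of Hoxd12 had 24.4% ± 6.40 and 29.6% ± 6.37 at rest, and 23.0% ± 5.94 and 19.1% ± 5.51 at 60 min. The single body CpG of Hoxa7 was at 0% in all 10 samples at rest and at 0% to 20.4% later. The likelihood ratio test called this CpG as a gene body and 1 CpG upstream of Hoxc10 as a cluster, where it called 4.28% of all gene bodies and 0.768% of all CpG clusters, and limma called no Hox feature.

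The genotype by time interaction was called in no Hox feature, where 0.0% of all promoters, 0.0% of all gene bodies and 0.0% of all CpG clusters were called (edgeR), and neither limma nor the likelihood ratio test called a Hox feature. At an unadjusted p under 0.05 there were 0 promoters, 2 gene bodies and 5 CpG clusters. These were 0.0%, 7.69% and 5.88% of the Hox features, against 3.02%, 3.36% and 2.74% of all features. The lowest p was that of the Hoxb6 gene body (edgeR, adjusted p = 1). It had 5.56% ± 1.18 in WT and 2.77% ± 1.89 in mD3AKO at rest, 2.28% ± 0.475 and 6.15% ± 1.56 at 10 min, 4.96% ± 2.16 and 5.71% ± 2.73 at 30 min, and 5.64% ± 2.34 and 4.67% ± 2.39 at 60 min. At rest the WT mean was the higher and at 10 min the mD3AKO mean. The gene bodies of Hoxb2 and Hoxc11 followed, as did the promoters of Hoxb1, Hoxc5 and Hoxd9 and the CpG clusters of Hoxc5 at 102981349, Hoxd3 at 74727011 and Hoxb6 at 96295474 (edgeR, adjusted p = 1 for each). The Hoxd3 cluster had 38.2% ± 7.66 in WT and 57.1% ± 3.49 in mD3AKO at rest, 28.6% ± 19.0 and 48.9% ± 6.59 at 10 min, 38.5% ± 0.558 and 39.9% ± 8.23 at 30 min, and 49.6% ± 17.9 and 41.1% ± 9.67 at 60 min, so the mD3AKO mean was the higher at the first 3 times and the lower at the last.

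Tested at single times, none of the 85 Hox CpG clusters was called, by edgeR or by limma. At rest 0.00588% of all CpG clusters were called, and the shares at 10, 30 and 60 min were 0.0137%, 0.0176% and 0.00784%. In the same order, 1, 5, 2 and 1 Hox clusters had an unadjusted p under 0.05 (edgeR). These were 1.18%, 5.88%, 2.35% and 1.18% of the Hox clusters, against 4.69%, 5.12%, 5.14% and 5.23% of all clusters. At 10 min 54 of the 85 Hox clusters were higher in mD3AKO, with a median log2 odds ratio of 0.30 against -0.12 over all clusters, whereas at rest, 30 and 60 min the Hox medians were -0.12, -0.18 and -0.17. At 10 min 36.5% of the Hox clusters were lower, against 55.4% of all. The clusters share the same 5 WT and 5 mD3AKO samples and are not replicates. Over all Hox CpGs the WT mean was 9.79% ± 1.44 at rest and 8.60% ± 1.63 at 10 min. In mD3AKO it was 9.62% ± 1.69 and 8.89% ± 1.38, so neither genotype rose. The lowest p at rest were those of Hoxd3 at 74727011, Hoxb5 at 96302060 and Hoxc10 at 102968715 (edgeR, adjusted p = 1). At 10 min they were Hoxb1 (edgeR, adjusted p = 0.694), the same Hoxd3 cluster (adjusted p = 0.862) and Hoxb6 at 96295474 (adjusted p = 0.941). At 30 min they were Hoxb13 at 96193615 (edgeR, adjusted p = 0.850), Hoxc5 at 102981349 (adjusted p = 0.859) and the exon CpG of Hoxa2 (adjusted p = 0.985). At 60 min they were Hoxb1 (edgeR, adjusted p = 0.918), the Hoxc4 intron (adjusted p = 0.962) and Hoxd3 at 74729340 (adjusted p = 0.968).

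Males and females were compared with sex as an added term. No Hox CpG cluster was called, nor was any in the table (0.0% called, edgeR and limma). Unadjusted p was under 0.05 in 5 Hox clusters (5.88%, against 4.36% of all clusters, edgeR). The lowest p were those of a Hoxc5 exon CpG at 103014398 (0.389% in females and 2.50% in males, edgeR, adjusted p = 1), Hoxd11 at 74683920 (23.2% and 14.1%) and Hoxc10 at 102968715 (20.5% and 14.0%).

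The genes that work with or upon Hox genes were counted in lists. Of 9 Hox cofactors, which bind DNA together with Hox proteins, 7 promoters and 8 gene bodies were measured, and the gene bodies of Pbx2 and Pknox2 fell, where 1.42% of all gene bodies were called (edgeR). Pbx2 had 6.36% ± 2.11 in WT and 3.30% ± 1.48 in mD3AKO (edgeR, adjusted p = 0.00115, 22 of 23 mD3AKO samples below the WT mean), and Pknox2 10.8% ± 2.09 and 7.80% ± 2.15 (log2 odds ratio -0.53 ± 0.13, adjusted p = 0.0227). Of 21 Polycomb and Trithorax regulators, which silence Hox genes or keep them active, 17 promoters and 19 gene bodies were measured, and the bodies of Pcgf2 and Cbx2, both of a Polycomb complex, fell. Pcgf2 had 5.94% ± 3.15 and 2.16% ± 0.878 (-1.41 ± 0.28, edgeR, adjusted p = 0.00171, 23 of 23 below), and Cbx2 14.0% ± 7.00 and 5.84% ± 3.93 (-1.50 ± 0.38, adjusted p = 0.0256). The likelihood ratio test, which called 3.74% of all gene bodies, called Pcgf2 and Cbx2 and not Pbx2 or Pknox2. No ParaHox or even-skipped relative was called (6 promoters and 7 bodies of 7 genes), and the lowest p was that of the Cdx2 body, 1.99% ± 1.07 and 1.14% ± 0.695 (edgeR, adjusted p = 0.0619). No gene beside the Hox clusters was called (5 promoters and 7 bodies of 12 genes), where the Snx11 promoter had the lowest p (edgeR, adjusted p = 0.862). Of 13 RNA genes inside the clusters, 0 had a CpG under their own name. The median log2 odds ratios of promoters and gene bodies were -0.47 and -0.28 for cofactors, -0.03 and -0.20 for Polycomb and Trithorax regulators, 0.10 and -0.41 for ParaHox relatives, and 0.63 and 0.05 for neighbours, beside -0.07 and -0.10 over all genes. The promoter median of the neighbours is that of Mtx2, at 0.458% in WT and 0.617% in mD3AKO. That of the cofactors is Meis2, at 1.12% and 0.858%. At such low levels a small difference gives a large ratio, and the lists were not tested against all genes.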

How the data were processed

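RRBS was analysed in 44 soleus samples, and 6 of the 50 samples of the series were not used here. The authors deposited raw counts of methylated and of unmethylated calls for each CpG. Per the labels, the authors used Trim Galore 0.4.0, cutadapt 1.9.1 and Bismark 0.18.1 on mm10 (the same assembly as GRCm38), and, per their methods, added both strands and kept autosomal CpGs covered 8 times or more in all samples. Promoters (from 3000 bp before to 1000 bp after a start), gene bodies and CpG clusters are those of the table. A CpG carries 1 promoter gene and 1 body gene, and 178 Hox CpGs lie in 2 or more gene models. PCR copies cannot be told apart from molecules. Annotation came from GENCODE M21 and sequence from the RefSeq copy of GRCm38.

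Counts were summed per feature and modelled in edgeR 4.0.16 (quasi-likelihood F test, a coefficient per sample, 8 group means, common dispersion, two-sided p, Benjamini-Hochberg adjustment over all features, threshold 0.05). Genotype is the mean of 4 mD3AKO groups minus the mean of 4 WT groups. SE is the log2 odds ratio over the root of F. The script was tested on simulated data. Alternatives were the likelihood ratio test, limma 3.58.1 (pseudocount 1), at least 20 reads in every sample, CpG clusters rebuilt with gaps of 50 or 200 bp, sex as a term, samples 1 to 25 or 26 to 50 alone, and leaving out each sample. The latter kept the dispersion of all samples for promoters and used limma for CpG clusters. The labels number the samples but do not state separate mice, while the authors give n as individual mice for their RRBS data. The p-values measure the spread between samples. The members and gene lists were chosen with earlier results of these data known. Named features are all members called, the 3 of lowest p in each Hox cluster for genotype (3 in all for time, interaction, single times and sex), the highest and lowest WT promoter and gene body of each cluster, and, of other lists, the genes called or else the lowest p. Other single features were chosen after their values were seen.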

Additional observations from a re-analysis of the deposited data

Results flagged for a closer look

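Within groups of 5 to 7 samples, single values stood far from the rest by Dixon's criterion in 18 cases of 127 groups examined (4 Hox cluster levels and 12 CpG clusters in 8 groups). About 6.35 cases would be expected if the values were normally distributed. Several of these groups lie at or near 0, where even a small value can stand apart. Hoxb1 in WT sample 47 is such a case, with the nearest sample at 0. No conclusion is therefore drawn from the excess over 6.35. Values are methylation levels in percent. In the Hoxd cluster, mD3AKO sample 29 at 30 min had 17.0, with the nearest sample at 14.4. The Hoxb4 exon cluster had 7 of the 18 cases, with WT sample 1 at rest at 0.239, WT sample 47 at 10 min at 3.07, WT sample 44 at 30 min at 1.01, and mD3AKO samples 21 at rest at 19.5, 28 at 10 min at 7.41, 41 at 30 min at 8.22 and 10 at 60 min at 7.96. At Hoxb1, WT sample 47 at 10 min had 0.510, WT sample 31 at 30 min 5.0, mD3AKO sample 21 at rest 6.40 and mD3AKO sample 29 at 30 min 10.9. At the Hoxa10 cluster, WT sample 42 at 10 min had 1.01 and mD3AKO sample 24 at rest 6.95. At the 4 CpGs upstream of Hoxc8, mD3AKO samples 43 at 30 min and 6 at 60 min had 26.2 and 13.9. At the Hoxd13 exon cluster, WT sample 32 at 30 min had 12.5 and mD3AKO sample 12 at rest 1.13.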

How the results depend on the processing

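The counts of Hox features called moved under some alternatives. The likelihood ratio test gave 1 promoter and 1 CpG cluster (both Hoxb1, adjusted p = 0.00900 and 0.00253, log2 odds ratio 2.66 and 2.69) and 2 features with a difference over time (1 gene body and 1 CpG cluster), where it called 1.69% of all promoters and 2.92% of all CpG clusters for genotype and 4.28% of all gene bodies and 0.768% of all CpG clusters over time. Gaps of 200 bp gave 1 CpG cluster (Hoxc4, with 0.987% of all such clusters called), limma gave 2 single CpGs (0.711% of all CpGs called), and the likelihood ratio test called 2 of the other listed genes in place of 4. At a coverage minimum of 20, with sex as a term, at gaps of 50 bp and within samples 1 to 25 or 26 to 50, the genotype counts stayed at 0 wherever they were run. Leaving out 1 sample at a time gave 0 to 0 promoters and 0 to 0 CpG clusters. It gave differences in cluster level of -1.38 to -1.18 in Hoxa, 0.110 to 0.384 in Hoxb, -1.52 to -1.16 in Hoxc and -0.217 to 0.240 in Hoxd, and promoter slopes of -0.165 to -0.131, 0.368 to 0.425, -0.614 to -0.538 and 1.05 to 1.08 in the same order. The Hoxa difference was -3.00 over gene body CpGs outside promoters, against -1.27. From gene bodies in place of promoters, the slopes were -0.948, -0.959, -1.47 and -0.103. The log2 odds ratio changed sign for the promoters of Hoxc9 (0.14) and Hoxd9 (0.24) in samples 26 to 50 and Hoxd1 (0.15) in samples 1 to 25, for the gene bodies of Hoxa9 (0.015) and Hoxd1 (0.17) in samples 1 to 25, and for the gene bodies of Hoxb5 (0.40), Hoxc5 (0.0045) and Hoxd3 (-0.0011) at a coverage minimum of 20. The cause was not tested. No paired analysis was possible because every sample number in the labels is used once. At single Hox CpGs 1 sample can hold as few as 8 calls, which limits the precision of its level.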
